A study of Arabidopsis thaliana with 71 samples.

Results

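The CUC and organ boundary genes are 8 transcriptional regulators of Arabidopsis thaliana that were chosen by locus identifier: CUC1 (AT3G15170), CUC2 (AT5G53950), CUC3 (AT1G76420), BOP1 (AT3G57130), BOP2 (AT2G41370), LOB (AT5G63090), LAS (AT1G55580) and LOF1 (AT1G26780). All 8 were present among the 22332 genes of the deposited expression table. They were described over 71 RNA-seq libraries of whole Columbia seedlings, which were cultured in liquid MS medium for 7 days and then given 50 µM dexamethasone, with harvests at 0, 30, 60 and 120 min. The GR lines each carried 1 transcription factor fused to the glucocorticoid receptor, whose fusion proteins enter the nucleus once dexamethasone is added, so the series asks which transcripts change after AS2, STM, REV or KAN1 becomes active. The groups were the lines GR-AS2, GR-STM, GR-REV as well as GR-KAN1 (genotype GR-KANADI1, also written KANADI1-GR) with 3 libraries per time, or 2 for GR-REV at 30 min, and wild type (WT) with 6. WT received dexamethasone as well, so all groups after 0 min share the hormone. Each flask was sown with several seedlings, so a library pools plants. The sources used here do not give the promoter that drives each fusion or the number of independent transformants.

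Organ boundaries are narrow bands of slowly growing cells that separate the shoot meristem from new leaves and leaves from each other. The CUC genes encode NAC transcription factors that hold growth back in these bands and promote meristem formation in the embryo together with the KNOX gene STM, and microRNA miR164 cleaves the CUC1 and CUC2 transcripts but not that of CUC3. BOP1 and BOP2 are BTB-ankyrin co-regulators of the leaf base, LOB is the founding LOB-domain factor and lowers brassinosteroid levels at boundaries, LAS is a GRAS protein needed for axillary meristems, and LOF1 is a MYB protein that keeps axillary organs apart. CUC1 has been described as a target of STM, which is background here and not a result.

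Expression was given as FPKM, in which fragment counts are divided by the length of the transcript and the size of the library, so levels can be compared between genes. In WT the boundary genes were low transcripts, and between 66.7% and 93.2% of all genes had a higher mean. Over the 24 WT libraries BOP2 averaged 2.14 ± 0.366 FPKM (SD), LOB 1.59 ± 0.478 FPKM and BOP1 0.866 ± 0.281 FPKM. Each of these means exceeded the next by more than the larger SD. CUC1 followed at 0.454 ± 0.201 FPKM, LOF1 at 0.424 ± 0.242 FPKM, CUC3 at 0.343 ± 0.166 FPKM, CUC2 at 0.269 ± 0.125 FPKM and LAS at 0.252 ± 0.105 FPKM. No mean among these 5 exceeded the next by more than the larger SD. Within libraries, CUC3 was above CUC2 in 20 of the 24 WT libraries, as many as had BOP2 above LOB. In whole seedlings, fewer cells of a type and less RNA per cell cannot be told apart.

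A test needs measurable transcripts, so genes were tested when the mean of at least 1 line and time reached 1 FPKM, which 19406 genes did. CUC1, BOP1, BOP2 and LOB passed. CUC1 passed only through GR-STM at 60 and 120 min, so its presence among the tested genes already reflects its level there. CUC2, CUC3, LAS and LOF1 stayed below 1 FPKM everywhere, with highest group means of 0.366 FPKM (CUC2, WT at 120 min), 0.568 FPKM (CUC3, GR-KAN1 at 120 min), 0.382 FPKM (LAS, GR-STM at 60 min) and 0.551 FPKM (LOF1, WT at 60 min). They were tested in a fit of all 22332 genes without that filter. Of the 568 values of the 8 genes, 11 are listed at 0.

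Depth is unknown because FPKM keep no read totals, and some abundant genes are listed at 0. The STM transcript, which includes the transgene, lay between 66.7 and 342 FPKM in the 12 GR-STM libraries, against 2.05 to 4.02 FPKM in the 24 WT libraries. All 4 root markers were above 0 in every library, with summed levels of 751 to 16236 FPKM. Of the 3 photosynthetic markers RCA was above 0 in every library (389 to 3231 FPKM), but CAB1 is listed at 0 in 8 of 71 libraries and RBCS1A in 58, all 12 of GR-STM among them. Their summed levels, 1209 to 109640 FPKM, therefore rest in part on such zeros of genes that green seedlings use. Of 3 shoot meristem markers, WUS and CLV3 were not among the genes of the table and CLV1 was. On the main axis of residual variation the 5 libraries furthest out were left out as an alternative, although the values run on without a clear break after them: from the 0 min harvest replicate 1 of GR-AS2, replicate 2 of GR-STM and replicate 3 of both GR-REV and GR-KAN1, and from the 60 min harvest replicate 3 of GR-AS2. The rises of CUC1 and BOP2 in GR-STM, and the counts of called members that changed, are also given without them.

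The sequences that tie CUC1 and CUC2 to miR164 and those upstream of the genes that responded are shown first, since the members differ in them. All were read from the TAIR10.1 reference with the RefSeq annotation, because the deposited table holds no coordinates. The mature miR164 sequences, in DNA letters with the seed (bases 2 to 8) in capitals, share 1 seed and differ at the last base; miR164a (identical to miR164b-5p) lies at chr2:19520770-19520790 and miR164c-5p at chr5:9852684-9852704, both on the plus strand.
miR164a: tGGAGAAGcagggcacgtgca
miR164c-5p: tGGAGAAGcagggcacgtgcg
The site of closest match to miR164a in CUC1 lies at chr3:5111137-5111157 (plus strand) and that in CUC2 at chr5:21902301-21902321 (minus strand), both within the coding part of the third exon. The 3 bases that differ from the exact complement of miR164a are in capitals, and the other 18 of 21 match it. Every differing letter counts as a mismatch here, G:U pairs included.
CUC1 site: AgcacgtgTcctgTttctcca
CUC2 site: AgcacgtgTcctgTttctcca
The CUC1 and CUC2 sites were identical. A match with at most 3 mismatches was found in 6 of 31460 annotated genes (0.0191%), of which the other 4 were NAC1, NAC080, NAC100 and AT3G12977. The best site in CUC3 had 9 mismatches, which 78.6% of genes matched or bettered. The transcript levels of both genes are described next.

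CUC1 spans chr3:5109782-5111608 with 3 exons and BOP2 chr2:17237727-17240609 with 2 exons. Their 250 bases upstream of the annotated start are shown because these were the members whose transcripts rose. The capitals mark matches, on either strand, to TGACAG (a core bound by TALE homeodomain proteins, the class of STM) and GAATAT (bound by KAN1).
CUC1, chr3:5109532-5109781, plus strand: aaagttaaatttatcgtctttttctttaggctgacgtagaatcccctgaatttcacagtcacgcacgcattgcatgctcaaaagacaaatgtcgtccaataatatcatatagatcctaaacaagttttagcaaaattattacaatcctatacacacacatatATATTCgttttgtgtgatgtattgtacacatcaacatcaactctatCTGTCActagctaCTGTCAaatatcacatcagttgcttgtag
BOP2, chr2:17240610-17240859, minus strand: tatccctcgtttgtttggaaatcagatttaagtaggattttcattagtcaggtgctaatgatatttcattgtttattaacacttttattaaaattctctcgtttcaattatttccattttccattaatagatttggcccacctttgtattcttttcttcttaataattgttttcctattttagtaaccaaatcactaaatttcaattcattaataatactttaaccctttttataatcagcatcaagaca
CUC1 held 2 TGACAG matches, 42 and 29 bases before the annotated start. Of 27443 promoters of this length 5.86% held at least 1 and 0.215% at least 2. It also held 1 GAATAT match 88 bases before the start, as did 22.9% of promoters. BOP2 held neither, nor GAATAA (KAN1, 24.7% of promoters), the palindrome bound by HD-ZIP III proteins such as REV (0.051%) or GCGGCG (bound by LOB-domain proteins, 1.56%), and LAS was the other member with a TGACAG match, 63 bases before its start. In 1000 bases upstream CUC2 also held 2 TGACAG matches, 831 and 529 bases before its start, as many as CUC1 in that window, and 22% of promoters held at least 1 and 3.13% at least 2. These matches describe the letters of the windows only.

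In GR-STM the CUC1 transcript rose to become the most abundant of the 8. At 0 min it measured 0.452, 0.223 and 0.371 FPKM in the 3 GR-STM libraries, against a lowest, median and highest of 0.146, 0.487 and 0.738 FPKM in the 6 WT libraries. At 30 min it measured 0.749, 1.35 and 0.811 FPKM in GR-STM, against 0.392, 0.503 and 0.605 FPKM in WT. The groups overlapped at 0 min but not at 30 min, when GR-STM averaged 1.98 times the WT level. Over all 22332 genes, 0.981%, 3.79% and 5.8% had every GR-STM library above every WT library at 30, 60 and 120 min. At 60 min the GR-STM libraries held 6.71, 5.46 and 4.30 FPKM, against 0.149, 0.455 and 0.601 FPKM in WT. At 120 min they held 12.8, 7.52 and 9.58 FPKM, against 0, 0.569 and 0.795 FPKM in WT. Every GR-STM library at both times lay far above every WT library, with ratios of the means of 13.5 and 21.1.

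**Figure D1:**
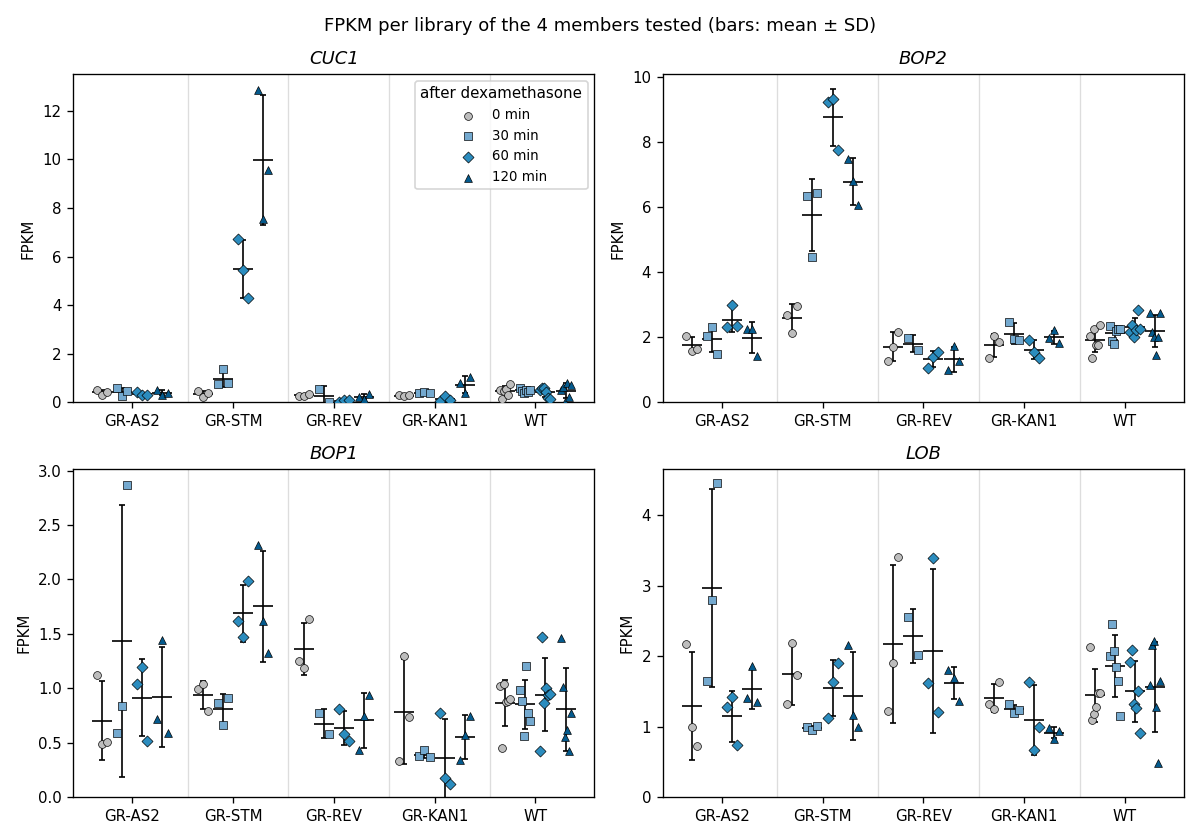
FPKM of CUC1, BOP2, BOP1 and LOB in each library (points) by line, with the time after dexamethasone given by the symbol and the mean ± SD by the bars. CUC1 stands at 4.30 to 12.8 FPKM in the GR-STM libraries of 60 and 120 min and at no more than 1.04 FPKM in the 59 libraries of other lines, and BOP2 stands at 4.49 to 9.33 FPKM in GR-STM from 30 min on.

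Changes from 0 min were then compared with those of WT over the same interval, as log2(FPKM + 0.5), a scale on which low genes show less than their full change. By limma, the rise of CUC1 over that of WT was 2.87 at 60 min (SE 0.31, adjusted p = 1.07e-08), and it reached 3.72 at 120 min (SE 0.33, adjusted p = 1.83e-11). At 30 min its change beyond WT was 0.76 (SE 0.32, adjusted p = 0.717) and did not pass the adjusted p threshold of 0.05. CUC1 had the second largest increase of 96 genes that rose at 60 min and again of 114 at 120 min. It was tested only through its GR-STM means at 60 and 120 min, so this rank is fixed in part by the filter. The limma fit without the filter gave CUC1 rises of 2.87 and 3.72 at these times (adjusted p = 5.1e-09 and 5.27e-12). All WT libraries of replicates 4 to 6 carry other library code series than the GR lines. Within the code series that both share, CUC1 rose by 2.51 at 60 min (adjusted p = 3.24e-05). Its rise at 120 min was 3.65 there (adjusted p = 1.39e-09). Without the 5 libraries furthest out they were 2.76 and 3.61 (adjusted p = 2.08e-06 and 2.92e-09).

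Between 30 and 60 min the CUC1 change in GR-STM exceeded that of WT by 2.11 (SE 0.32, adjusted p = 0.000488), and CUC1 was 1 of 9 genes called there, 0.0464% of those tested. Since CUC1 was tested only through its GR-STM means at 60 and 120 min, its place in this count is fixed in part by the filter. In the limma fit without the filter the step was 2.11 (adjusted p = 0.00029). With a pseudocount of 0.1 this step was no longer called (2.55, adjusted p = 0.256). From 60 to 120 min the further change beyond WT was 0.85 (SE 0.33, adjusted p = 1), where 1 gene in all was called (0.00515%).

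BOP2, the BTB-ankyrin co-regulator, was already the most abundant member in GR-STM before dexamethasone, and it rose too. At 0 min it measured 2.67, 2.13 and 2.97 FPKM in GR-STM, against a lowest, median and highest of 1.35, 1.90 and 2.38 FPKM in WT, and the groups overlapped. At 30 min the GR-STM libraries held 6.36, 4.49 and 6.44 FPKM, against 1.81, 2.22 and 2.34 FPKM in WT. At 60 min they held 9.25, 9.33 and 7.77 FPKM, against 2.00, 2.23 and 2.85 FPKM in WT. At 120 min they held 7.49, 6.83 and 6.06 FPKM, against 1.45, 2.10 and 2.76 FPKM in WT. All GR-STM libraries of 30, 60 and 120 min lay above all WT libraries of the same time, by ratios of means of 2.71, 3.80 and 3.10. The same held for 0.981%, 3.79% and 5.8% of all 22332 genes at these times.

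Set against WT at the same time, BOP2 in GR-STM was higher by 1.25 at 30 min (SE 0.16, adjusted p = 1.16e-06), 1.77 at 60 min (SE 0.16, adjusted p = 1.38e-11) and 1.44 at 120 min (SE 0.17, adjusted p = 6.49e-09). CUC1 on this scale was higher by 2.69 (SE 0.24, adjusted p = 2.53e-12) at 60 min and 3.54 (SE 0.24, adjusted p = 7.66e-17) at 120 min, and its difference of 0.58 at 30 min was not called (adjusted p = 0.537). Of the 4 members tested, 1 was called at 30 min and 2 at 60 and 120 min, where 0.227%, 1.81% and 2.96% of all tested genes were. CUC1 was among the 4 only through its GR-STM means at 60 and 120 min, so its part in these counts is fixed in part by the filter. The BOP2 call at 30 min was lost when only the groups compared were fitted (1.31, adjusted p = 0.288).

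With the start level taken off, the rise of BOP2 over WT was 1.37 at 60 min (SE 0.22, adjusted p = 7.44e-05), and 1.04 remained at 120 min (SE 0.23, adjusted p = 0.00826). Its change of 0.85 at 30 min (SE 0.22, adjusted p = 0.113) was not called, and the difference of 0.40 between GR-STM and WT at 0 min (SE 0.16, adjusted p = 0.588) was not called either. In this comparison 0, 2 and 2 of the 4 tested members were called at 30, 60 and 120 min, all of them higher, against 0.144%, 0.876% and 0.819% of all tested genes in either direction and 0.0206%, 0.495% and 0.587% higher. Since CUC1 entered the tested genes through these groups, its part in this count is fixed in part by the filter. In the fit of all 22332 genes 0, 2 and 2 of the 8 members were called, again CUC1 and BOP2, against 0.116%, 0.761% and 0.676% of genes. The BOP2 call at 120 min was lost without GR-STM 0 min replicate 2 (0.93, adjusted p = 0.0640) and within the shared code series (0.99, adjusted p = 0.0547). Without the 5 libraries furthest out, BOP2 rose by 1.26 at 60 min (limma adjusted p = 0.00219). At 120 min its change there was 0.93 and was not called (limma adjusted p = 0.0640). BOP2 ranked 46 of 96 by size among the genes that rose at 60 min and 89 of 114 at 120 min. The gene shares 607 bases with AT2G41375 on the opposite strand, which is not among the genes of the table, and the sources used here do not say whether reads were counted by strand.

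BOP1, the close relative of BOP2, measured 1.61, 1.47 and 1.98 FPKM in GR-STM at 60 min, against a lowest, median and highest of 0.428, 0.941 and 1.47 FPKM in WT. At 120 min it measured 2.32, 1.62 and 1.32 FPKM in GR-STM, against 0.424, 0.693 and 1.46 FPKM in WT. The GR-STM values sat at the upper end of WT or above it, with overlap at both times. The changes beyond WT of 0.54 and 0.65 (adjusted p = 0.653 and 1) were not called. The longest stretch that BOP1 and BOP2 transcripts share letter for letter is 32 bases, and no pair of members shared a window of 50 bases.

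LOB measured 0.994, 0.952 and 1.01 FPKM in GR-STM at 30 min, against 1.15, 1.92 and 2.45 FPKM as lowest, median and highest in WT. All 3 GR-STM libraries lay below all WT libraries there, as for 1.5% of all genes, and the groups overlapped at 0, 60 and 120 min. The difference from WT at 30 min was -0.84 (SE 0.26, unadjusted p = 0.00224, limma adjusted p = 0.275) and was not called. BAS1, the brassinosteroid-inactivating enzyme known as a target of LOB, was not called beyond WT in any line.

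**Figure D2:**
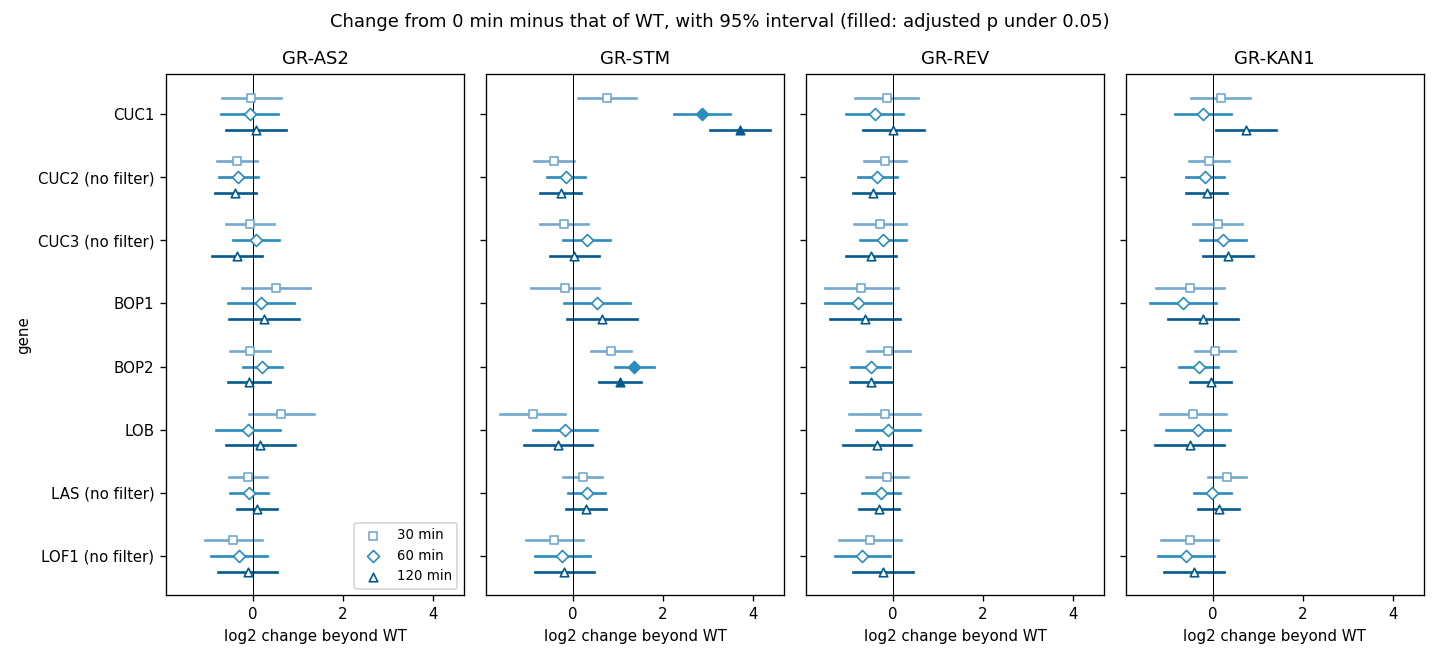
Change from 0 min in each GR line minus that of WT, as log2(FPKM + 0.5), for the 8 members (rows) at 30, 60 and 120 min, with 95% intervals and filled symbols for an adjusted p under 0.05. The filled symbols are CUC1 (2.87 and 3.72) and BOP2 (1.37 and 1.04) in GR-STM, and members named with "no filter" come from the fit of all 22332 genes.

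CUC2 and CUC3, the relatives of CUC1, did not show its course in GR-STM. CUC2 measured 0.195, 0.408 and 0.158 FPKM in GR-STM at 120 min, against a lowest, median and highest of 0.257, 0.338 and 0.573 FPKM in WT. CUC3 measured 0.659, 0.503 and 0.278 FPKM in GR-STM at 120 min, against 0.272, 0.430 and 0.681 FPKM in WT. Both pairs of groups overlapped, and at these levels a small change could not be resolved. LAS measured 0.379, 0.522 and 0.246 FPKM in GR-STM at 60 min, against 0.0533, 0.285 and 0.504 FPKM in WT, and LOF1 measured 0.443, 0.562 and 0.594 FPKM, against 0.195, 0.461 and 1.16 FPKM. In the fit without the filter none of these 4 was called beyond WT at any time in any line. Few genes were called there at all: for GR-STM 0.116%, 0.761% and 0.676% of 22332 genes at 30, 60 and 120 min.

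The summed level of the 8 genes in GR-STM was 6.83 ± 0.357 FPKM at 0 min, 9.55 ± 0.633 at 30 min, 19.1 ± 1.58 at 60 min and 21.4 ± 4.50 at 120 min (SD, n = 3 each), against WT means of 5.72 to 6.69 FPKM. CUC1 made up 5.08%, 10.4%, 28.5% and 46.5% of that sum in GR-STM over the 4 times, against 7.57%, 7.32%, 6.26% and 7.11% in WT. BOP2 made up 37.8%, 60.0%, 46.0% and 32.3% in GR-STM, against 33.9%, 31.9%, 36.1% and 34.7% in WT. The order of the members thus changed in GR-STM: CUC1 ranked 5 of the 8 at 0 min, 3 at 30 min, 2 at 60 min and 1 at 120 min.

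**Figure D3:**
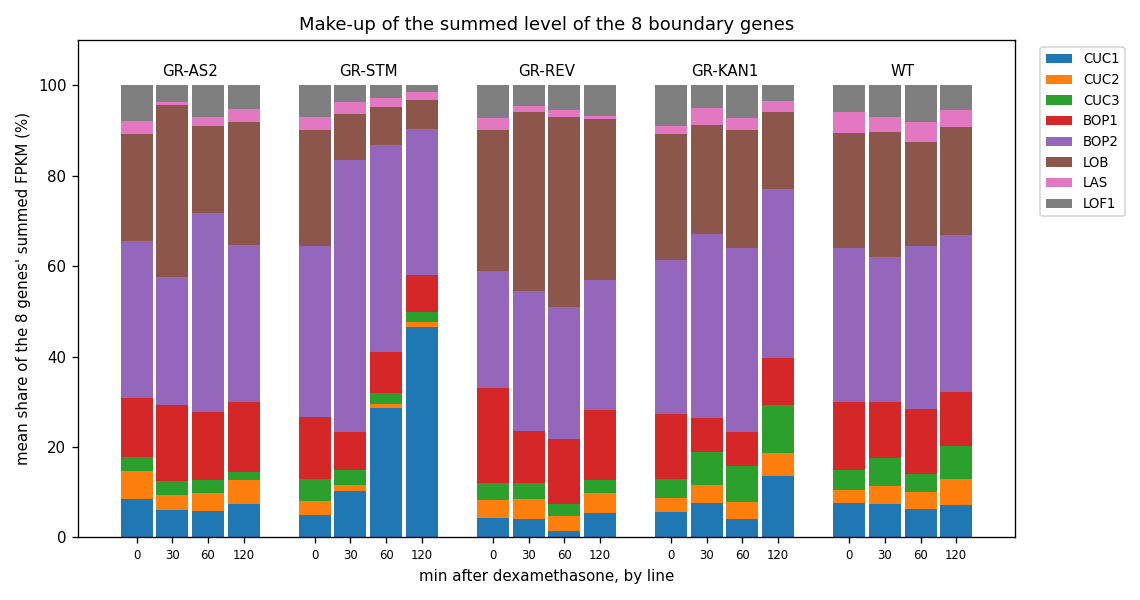
Mean share of each member in the summed FPKM of the 8 genes, in percent, for each line and time. CUC1 grows in GR-STM to 46.5% at 120 min, and in WT it stays between 6.26% and 7.57%.

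The GR-STM changes were next set against those of the other GR lines, which received the same hormone. CUC1 changed more in GR-STM than in GR-AS2 by 2.94 and 3.64 at 60 and 120 min (adjusted p = 4.46e-07 and 2.57e-10), than in GR-REV by 3.27 and 3.70 (adjusted p = 9.82e-09 and 1.23e-10), and than in GR-KAN1 by 3.09 and 2.98 (adjusted p = 6.27e-08 and 6.17e-08). The SE was 0.36 in each. BOP2 changed more in GR-STM than in GR-AS2 by 1.16 and 1.122 (adjusted p = 0.0120 and 0.00888), than in GR-REV by 1.86 and 1.52 (adjusted p = 1.22e-06 and 3.90e-05), and than in GR-KAN1 by 1.68 and 1.09 (adjusted p = 1.17e-05 and 0.00698), with an SE of 0.25 in each. These 3 comparisons share the GR-STM libraries. Each called 2 of the 4 tested members at 60 and at 120 min, against 0.423% and 0.871% of all tested genes for GR-AS2, 1.38% and 1.99% for GR-REV, and 1.69% and 1.81% for GR-KAN1. At 30 min none of the 4 was called, against 0.252%, 0.0618% and 0.0721% of genes. CUC1 was among the 4 only through its GR-STM means at 60 and 120 min, so its part in these counts is fixed in part by the filter. BOP1 changed more than in GR-REV by 1.32 and 1.26 at 60 and 120 min, which was not called (adjusted p = 0.125 and 0.140). Both BOP2 calls against GR-AS2 and that against GR-KAN1 at 120 min were lost without the 5 libraries named above (adjusted p = 0.129, 0.106 and 0.0767). Between GR-REV and GR-KAN1 no member differed in its change, against 0.216%, 2.05% and 2.67% of tested genes.

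**Figure D4:**
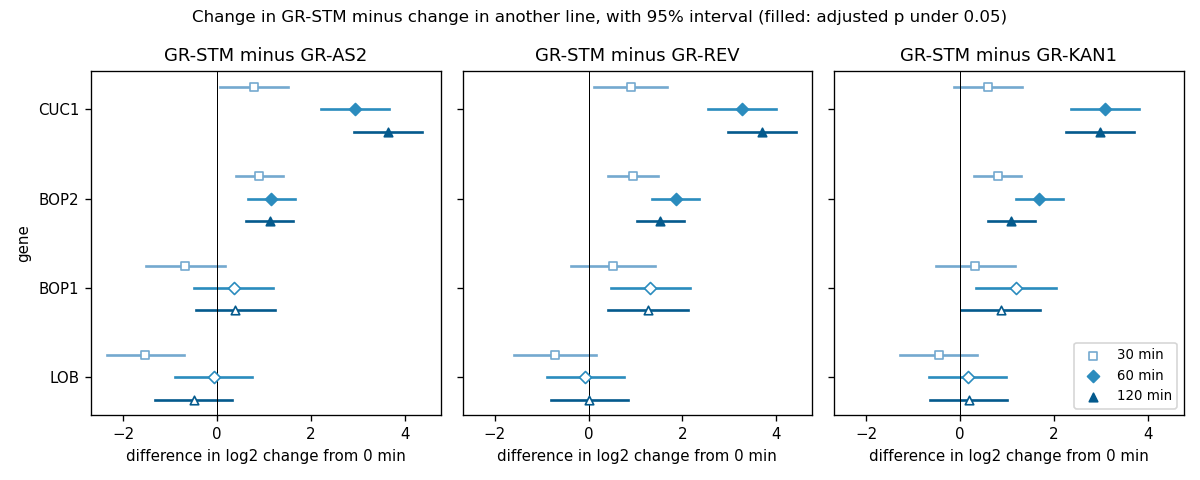
Change from 0 min in GR-STM minus that in GR-AS2, GR-REV or GR-KAN1 (panels), on the log2(FPKM + 0.5) scale with 95% intervals, for the 4 tested members at 30, 60 and 120 min. Filled symbols (adjusted p under 0.05) are CUC1, between 2.94 and 3.70, and BOP2, between 1.09 and 1.86, at 60 and 120 min.

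In GR-REV CUC1 and BOP2 were lower than in WT at 60 min. CUC1 measured 0, 0.0983 and 0.113 FPKM in GR-REV at 60 min, against a lowest, median and highest of 0.149, 0.455 and 0.601 FPKM in WT. BOP2 measured 1.05, 1.39 and 1.54 FPKM in GR-REV at 60 min, against 2.00, 2.23 and 2.85 FPKM in WT. The groups did not overlap for either gene, as for 6.31% of all genes in this direction. Against WT at the same time, limma called CUC1 lower, with a difference of -0.68 (SE 0.24, adjusted p = 0.0489). BOP2 was called lower by limma too, with -0.58 (SE 0.16, adjusted p = 0.0128). These were 2 of the 4 tested members, where 11.1% of all tested genes were called. Only its GR-STM means brought CUC1 into the 4, so this count is fixed in part by the filter. In the limma fit without the filter CUC1 was also called (-0.68, adjusted p = 0.0458), where 9.8% of genes were. LAS, which the filter left out, was called there too, as given below. This same-time comparison was added after values had been seen. The CUC1 call was lost under several alternatives, among them pseudocount 1 (adjusted p = 0.0845) and the fit without GR-REV 60 min replicate 1 (-0.59, adjusted p = 0.195), which also ended the BOP2 call (-0.46, adjusted p = 0.124).

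At 120 min BOP2 measured 0.980, 1.73 and 1.27 FPKM in GR-REV, against 1.45, 2.10 and 2.76 FPKM as lowest, median and highest in WT. The groups overlapped, and the difference of -0.57 was called (SE 0.17, adjusted p = 0.0219), 1 of 4 tested members where 6.57% of genes were. This call was lost without GR-REV 120 min replicate 1 (-0.43, adjusted p = 0.230) or replicate 3 (-0.56, adjusted p = 0.0885), or without WT 120 min replicate 1 (-0.48, adjusted p = 0.122). LAS measured 0.0405, 0.0340 and 0 FPKM in GR-REV at 120 min, against 0.129, 0.241 and 0.353 FPKM in WT, and no library of one group reached the other (6.79% of all genes were lower in this way). In the fit without the filter LAS differed from WT by -0.56 (SE 0.16, adjusted p = 0.0217) at 120 min and by -0.51 (SE 0.16, adjusted p = 0.0291) at 60 min, where 5.87% and 9.80% of 22332 genes were called. At 60 min LAS measured 0, 0.201 and 0.0576 FPKM in GR-REV, against a lowest, median and highest of 0.0533, 0.285 and 0.504 FPKM in WT, and the groups overlapped. The LAS calls were not followed under the other alternatives or with 1 library left out.

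None of these GR-REV differences was a called change from 0 min beyond WT. The changes of BOP2 beyond WT were -0.49 at 60 min and -0.48 at 120 min (SE 0.22 and 0.23, adjusted p = 0.389 and 0.559), and that of BOP1 at 60 min was -0.78 (SE 0.36, adjusted p = 0.420). At 0, 60 and 120 min 7.81%, 11.1% and 6.57% of tested genes differed between GR-REV and WT, so the line differed from WT before the hormone as well. Beyond WT 0 members were called in GR-REV at each time, against 0.0412%, 1.18% and 0.799% of tested genes at 30, 60 and 120 min. BOP1 was higher before the hormone, at 1.25, 1.19 and 1.64 FPKM in GR-REV, against 0.456, 0.893 and 1.04 FPKM as lowest, median and highest in WT; the groups did not overlap (6.22% of all genes were higher in this way), and no member was called at 0 min in GR-REV.

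In GR-KAN1 no member was called beyond WT at 30, 60 or 120 min, against 0.067%, 1.05% and 0.83% of tested genes, or against WT at the same time, against 0.474%, 4.58% and 5.27%. BOP1 measured 0.374, 0.429 and 0.367 FPKM in GR-KAN1 at 30 min, against 0.565, 0.829 and 1.21 FPKM as lowest, median and highest in WT. BOP2 measured 1.93, 1.56 and 1.36 FPKM in GR-KAN1 at 60 min, against 2.00, 2.23 and 2.85 FPKM in WT. Neither pair overlapped, as for 2.2% and 4.87% of all genes lower at those times, and the differences of -0.62 (adjusted p = 0.636) and -0.37 (adjusted p = 0.205) were not called. CUC1 varied within the line, with 0.0727, 0.266 and 0.0961 FPKM at 60 min and 0.783, 0.366 and 1.04 FPKM at 120 min, against 0, 0.569 and 0.795 FPKM as lowest, median and highest in WT at 120 min. Its change beyond WT at 120 min was 0.74 (SE 0.33, adjusted p = 0.473).

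GR-AS2 showed no called member beyond WT at 30, 60 or 120 min, against 0%, 0.0103% and 0% of tested genes, or against WT at the same time, against 4.05%, 0.314% and 0.108%. CUC3 measured 0.172, 0.0691 and 0.0824 FPKM in GR-AS2 at 120 min, against 0.272, 0.430 and 0.681 FPKM as lowest, median and highest in WT. It was also below every WT library at 30 min in GR-AS2 and at 30 and 120 min in GR-REV, where it measured 0.137, 0.174 and 0.0959 FPKM at 120 min. LOF1 lay below every WT library at 30 min in both lines, and 3.53% of all genes in GR-AS2 and 5.79% in GR-REV did so at that time. In the limma fit without the filter the CUC3 differences from WT at 120 min were -0.57 in GR-AS2 (SE 0.20, unadjusted p = 0.0057, adjusted p = 0.362) and -0.50 in GR-REV (SE 0.20, adjusted p = 0.142), and neither was called. Of all 22332 genes, 5.96% in GR-AS2 and 6.79% in GR-REV had every library below every WT library at 120 min. GR-AS2 30 min replicate 3 held the highest LOB (4.45 FPKM) and BOP1 (2.87 FPKM) of any library, against 1.65 and 2.80 FPKM of LOB and 0.589 and 0.842 FPKM of BOP1 in the other replicates of that group.

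**Figure D5:**
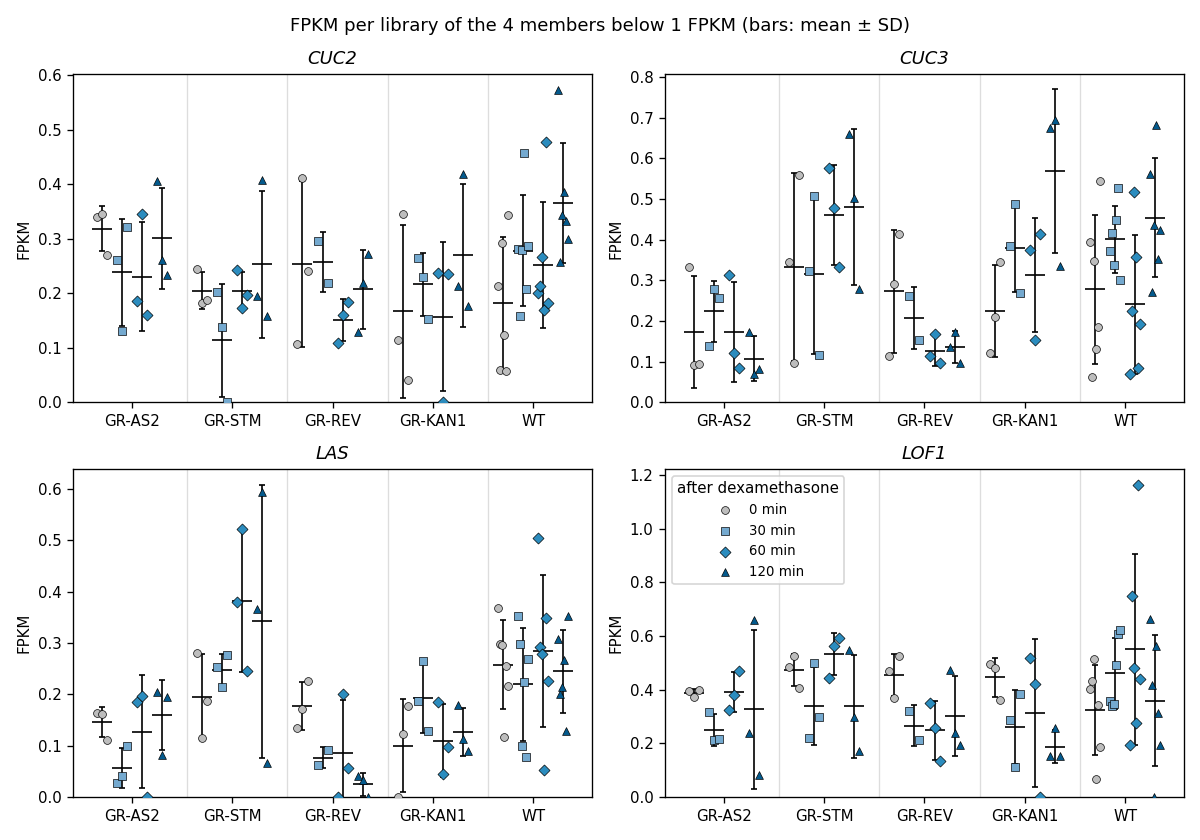
FPKM of CUC2, CUC3, LAS and LOF1 in each library (points) by line, with the time after dexamethasone given by the symbol and the mean ± SD by the bars. CUC3 in GR-AS2 and GR-REV and LAS in GR-REV lie below all WT libraries at 120 min, and every group mean is below 0.6 FPKM.

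At 0 min 0 of the 4 tested members were called in GR-AS2, GR-STM, GR-REV or GR-KAN1 against WT, where 10.3%, 0.33%, 7.81% and 0.742% of tested genes were called. In WT itself 0 members were called at 30, 60 or 120 min against 0 min, against 0.0567%, 0.0258% and 0.067% of tested genes. CUC2 had the smallest unadjusted p there, with 0.182 ± 0.121 FPKM before and 0.366 ± 0.111 FPKM 120 min after dexamethasone (SD, n = 6 each; log2 change 0.35 in the fit without the filter, limma unadjusted p = 0.0204, adjusted p = 0.533).

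Among other boundary regulators, LSH3 and LSH4 rose in GR-STM. Of 12 listed, 11 were among the genes of the table and 10 were tested, and 1 rose at 60 min and 2 at 120 min, where 0.495% and 0.587% of all tested genes rose. The median change beyond WT of the 10 was 0.16 at 60 min and 0.01 at 120 min, against 0.00 and 0.01 over all tested genes. LSH3, an ALOG-family protein described as a target of CUC1, stood at 20.9 ± 3.15 FPKM in GR-STM at 60 min and, at 120 min, 29.5 ± 7.77 FPKM, against 6.05 ± 1.48 and 6.87 ± 0.871 FPKM in WT (SD, n = 3 and 6). It rose beyond WT by 1.3 (SE 0.28, adjusted p = 0.00579) and 1.61 (SE 0.29, adjusted p = 0.000569). Its relative LSH4 stood at 55.4 ± 6.29 FPKM in GR-STM at 120 min, against 18.6 ± 4.69 FPKM in WT, and rose by 1.41 (SE 0.33, adjusted p = 0.0131), which was not called without GR-STM 120 min replicate 1 (adjusted p = 0.0656). The LSH3 call at 60 min was lost within the shared code series (adjusted p = 0.153). RAX1, RAX2, RAX3, HAN, PTL, DPA4, NGAL1 and SPT were not called beyond WT in GR-STM.

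NGAL1, a B3-domain protein of a family that represses CUC genes, changed beyond WT in GR-REV by -1.10 at 60 min (SE 0.24, adjusted p = 0.00616); at 120 min the change was -1.18 (SE 0.26, adjusted p = 0.00738). It stood at 6.76 ± 1.07 and 8.74 ± 1.35 FPKM in GR-REV, against 10.04 ± 1.68 and 13.7 ± 1.41 FPKM in WT, after 16.9 ± 4.54 FPKM in GR-REV and 11.0 ± 1.40 FPKM in WT at 0 min. The start difference of 0.65 was itself called (adjusted p = 0.0153), and both later calls were lost without GR-REV 0 min replicate 3 (adjusted p = 0.0797 and 0.0786) and within the shared code series (0.0895 and 0.0665). It was the only 1 of the 10 tested regulators called beyond WT in GR-REV, where 1.18% and 0.799% of all tested genes were called at 60 and 120 min, and in GR-AS2 and GR-KAN1 0 were.

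Among 9 KNOX, BEL1-like and leaf-side genes, all tested, AS1, a MYB partner of AS2 that represses KNOX genes, rose beyond WT in GR-STM by 1.78 and 1.47 at 60 and 120 min (adjusted p = 1.32e-05 and 0.000601), and the other 8 were not called, where 0.495% and 0.587% of all tested genes rose. AS1 stood at 39.8 ± 2.29 and 31.8 ± 4.82 FPKM in GR-STM, against 13.6 ± 3.27 and 14.1 ± 1.94 FPKM in WT. The median change of the 9 in GR-STM was 0.27 at 60 min and 0.13 at 120 min. AS2 was the other gene of this list called beyond WT, lower in GR-KAN1 at 60 min with a change of -0.95 (SE 0.24, adjusted p = 0.0315). It stood at 0.837 ± 0.334 FPKM in GR-KAN1 at 60 min, against 3.63 ± 1.03 FPKM in WT. At 0 min it already stood at 2.16 ± 0.511 FPKM in GR-KAN1, against 3.87 ± 1.49 FPKM in WT. The AS2 call was lost in 5 of 10 alternatives (limma adjusted p up to 0.287). With 1 library left out it was lost in 7 of 18 fits (limma adjusted p up to 0.164).

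Of 8 known repressors of CUC genes (3 MIR164 loci and 5 TCP genes), 7 were in the table and tested, all but MIR164A. None was called beyond WT in any line at any time, and the median change in GR-STM was 0.12 at 60 min and 0.05 at 120 min. The MIR164C precursor was listed at 0 in 11 of 12 GR-STM libraries and in all 59 libraries of the other lines, and at 38.7 FPKM in 1 GR-STM library of 120 min. TCP10, a TCP factor that keeps CUC genes low in leaves, stood at 2.35 ± 0.449 FPKM in GR-STM at 120 min, against 4.38 ± 0.579 FPKM in WT (-0.77 at the same time, SE 0.16, adjusted p = 0.00162), where 2.96% of tested genes were called. At 0 min TCP10 stood at 3.42 ± 0.441 FPKM in GR-STM, against 4.10 ± 0.846 FPKM in WT. TCP4, of the same family, was higher than in any WT library of that time, at 13.2, 14.4 and 14.5 FPKM in GR-STM at 120 min, against a lowest, median and highest of 6.37, 9.32 and 11.4 FPKM in WT (5.8% of all genes were higher in this way), and its difference of 0.39 was not called (SE 0.18, adjusted p = 0.400), nor was its change beyond WT of 0.82 at 60 min and 0.79 at 120 min (adjusted p = 0.0676 and 0.153). TCP10 was likewise lower in GR-REV at 120 min, at 2.05 ± 0.723 FPKM (-0.96, SE 0.16, adjusted p = 2.97e-05), where 6.57% of tested genes were called. Its mean at 120 min was also below that of WT in GR-AS2 (3.46 ± 0.628 FPKM) and GR-KAN1 (3.59 ± 0.605 FPKM).

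CLV1, the shoot meristem marker with values, averaged 7.67 ± 0.567 FPKM in GR-STM at 60 min and, at 120 min, 8.19 ± 2.11 FPKM, against 6.01 ± 0.702 and 4.84 ± 1.33 FPKM in WT. Its differences of 0.38 and 0.55 were not called (adjusted p = 0.611 and 0.262). Root markers summed to 1432 ± 372 and 3114 ± 597 FPKM in GR-STM at 60 and 120 min, against 1964 ± 631 and 1295 ± 489 FPKM in WT. These sums were mostly PYK10, at 1355 and 3064 FPKM in GR-STM, against 1891 and 1257 FPKM in WT. The other root markers differed less at these times. TIP2;3 averaged 70.4 and 43.1 FPKM in GR-STM, against 65.0 and 33.2 FPKM in WT. EXPA7 averaged 5.96 and 6.25 FPKM, against 6.67 and 4.52 FPKM, and COBL9 1.26 and 1.21 FPKM, against 1.56 and 0.894 FPKM. The photosynthetic marker CAB1 averaged 28622 ± 14396 and 40849 ± 16066 FPKM in GR-STM at those times, against 39660 ± 16474 and 28807 ± 14092 FPKM in WT, and RCA averaged 1480 ± 264 and 1596 ± 459 FPKM in GR-STM, against 1496 ± 894 and 1337 ± 255 FPKM in WT. RBCS1A, listed at 0 in all of these GR-STM libraries and in 3 of 6 WT libraries at each time, was not compared. The part of tissue make-up in the CUC1 and BOP2 results was not tested.

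Over the 20 means of line and time, the genes whose levels ran most like CUC1 were NTM1 (Pearson's r = 0.940), AT1G71180 (0.939), AAS (0.936), LSH3 (0.934) and NAC067 (0.933). NTM1, a membrane-bound NAC factor, averaged 44.4 FPKM in GR-STM at 60 min and 50.7 FPKM at 120 min, against 2.10 FPKM over WT. For BOP2 they were the homeobox gene AtHB23 (0.945), AT1G55200 (0.928) and NTM1 (0.927). Between members, CUC1 and BOP2 had r = 0.890, CUC1 and BOP1 0.685, and CUC1 and LOB -0.157. These correlations describe 20 points that share the GR-STM libraries, and carry no test.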

How the data were processed

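The authors mapped reads with TopHat2 2.0.10 and quantified them with Cufflinks on TAIR10, per the submitters' processing notes, and deposited FPKM with geometric normalization between libraries, per the series' design text. Libraries were made from oligo(dT)-primed cDNA, per the labels' protocols. The sources used here give no Cufflinks version or strand setting. Of 22346 entries, 14 placeholder identifiers were left out. Read depth is unknown, and precision rests on the spread between replicates. Median FPKM per library lay at 4.25 to 4.92, and 332 to 1136 genes were listed at 0. A 0 can be a failed estimate: some library lists a 0 for 31 genes whose median exceeds 20 FPKM. No 2 libraries held identical values. Groups came from the labels, and the design text calls all replicates biological.

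From these values, log2(FPKM + 0.5) of the 19406 genes with a group mean of at least 1 FPKM was fitted with limma 3.58.1 in R 4.3.3, with a mean per line and time and the library code series as covariate (49 residual degrees of freedom, trended empirical Bayes). There were 51 comparisons, each adjusted by Benjamini-Hochberg over all genes tested and called at an adjusted p under 0.05. Direct differences from WT at 30, 60 and 120 min were added after values had been seen. The code was tested on simulated data. Replicate numbers were checked as pairs: residuals of same-numbered libraries correlated between -0.386 and 0.409 with a median of 0.008, so they do not pair the samples. The members and gene lists were chosen with earlier results of these data known. The text names all 8 members, listed genes that were called or mark a tissue, and the genes with the most similar pattern. Sequences were read with Python 3.11.15, and no protein sequence was used here. Alternatives were the pseudocount (0.1 or 1), filter (none, or a mean of 5 FPKM over all libraries), quantile normalization, no covariate, WT replicates 4 to 6 left out, a replicate block, only the groups compared, the 5 libraries furthest out on the main residual axis left out, and each replicate left out.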

Additional observations from a re-analysis of the deposited data

Results flagged for a closer look

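Of 32 groups of 4 to 10 libraries checked (each member in each WT time), 3 held a library far from the others, and chance gives about 1 in 20. These were CUC2 in WT 60 min replicate 5 (0.478 FPKM, the highest), LOB in WT 0 min replicate 1 (2.13 FPKM, the highest) and BOP1 in WT 0 min replicate 2 (0.456 FPKM, the lowest). Groups of 3 were not checked.

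The change from 0 min differed between GR-STM and another GR line in 12 cases; 48 differences between GR lines were tested by limma, those between GR-REV and GR-KAN1 included. CUC1 differed from GR-AS2 by 2.94 at 60 min and 3.64 at 120 min, from GR-REV by 3.27 and 3.70, and from GR-KAN1 by 3.09 and 2.98. BOP2 differed from GR-AS2 by 1.16 at 60 min and 1.122 at 120 min, from GR-REV by 1.86 and 1.52, and from GR-KAN1 by 1.68 and 1.09. All are log2 differences, GR-STM minus the other line, and their limma adjusted p lay between 1.23e-10 and 0.0120. Of all tested genes, 0.423% to 1.99% were called in these comparisons at 60 and 120 min. The comparisons share the GR-STM libraries, and CUC1 was tested only through its GR-STM means at those times. Both BOP2 differences from GR-AS2, and that from GR-KAN1 at 120 min, were not called without the 5 libraries furthest out.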

How the results depend on the processing

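No result reversed its direction. CUC1 beyond WT in GR-STM stayed called under every alternative that held it, between 2.29 and 3.77 at 60 min and between 3.06 and 4.88 at 120 min. With a filter of another kind, a mean of 5 FPKM over all libraries (10999 genes), no member remained; CUC1 and BOP2 reach 5 FPKM in means of GR-STM groups only. The replicate block moved no count of called members by over 1.5 times, for example 2 members in GR-STM beyond WT at 60 min. Beyond WT in GR-STM at 30 min, 1 member was called with quantile normalization (BOP2, 0.90, adjusted p = 0.0191) and 0 otherwise. At 120 min the count was 1 instead of 2 without WT replicates 4 to 6, without the 5 libraries furthest out and with only the groups compared, and 1 to 2 with 1 library left out. GR-STM minus GR-AS2 at 30 min gave 1 instead of 0 with quantile normalization and without the 5 libraries, and 0 to 1 with 1 library left out (GR-AS2 0 min replicate 1, 30 min replicate 1 or 30 min replicate 2). At 60 min it gave 1 instead of 2 with pseudocount 0.1, without the 5 libraries and with only the groups compared, and 1 to 2 with 1 left out (replicate 1 of GR-AS2 at 0 or 60 min, or replicate 2 of GR-STM at 0 min). At 120 min it gave 1 without the 5 libraries and with only the groups compared, and 1 to 2 with 1 left out (GR-AS2 120 min replicate 3 or GR-STM 0 min replicate 2). GR-STM minus GR-KAN1 at 120 min gave 1 without the 5 libraries. GR-STM minus GR-REV at 60 min gave 2 to 3 over the alternatives. The GR-STM step from 30 to 60 min gave 0 with pseudocount 0.1. GR-STM against WT at 30 min gave 0 with only the groups compared. GR-REV against WT at 60 min gave 1 instead of 2 with pseudocount 1, quantile normalization, without the 5 libraries and with only the groups compared, and 0 to 2 with 1 left out (0 without GR-REV 60 min replicate 1). Among the alternatives it gave 3 at most. At 120 min it gave 2 with no filter, 0 with only the groups compared, and 0 to 1 with 1 left out. GR-KAN1 against WT at 60 min gave 1 instead of 0 with pseudocount 0.1 and with no covariate, and 0 to 1 with 1 left out (WT 60 min replicate 1 or GR-KAN1 60 min replicate 1). The causes were not tested. Over all genes, the count called in GR-STM beyond WT was 28 at 30 min (0 with only the groups compared, 105 without GR-STM 0 min replicate 1), 170 at 60 min (42 without WT replicates 4 to 6, 255 without GR-STM 0 min replicate 1) and 159 at 120 min (71 with that filter, 209 without GR-STM 0 min replicate 1).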
